A study of Mus musculus with 9 samples.

Results

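The 10 genes described here encode brakes on MAP kinase and cytokine signalling: the dual-specificity phosphatases (DUSPs) Dusp1, Dusp2, Dusp4, Dusp5, Dusp6 and Dusp10, the suppressor of cytokine signalling (SOCS) genes Socs1, Socs3 and Cish, and the transcriptional repressor Bcl6. They were chosen by name from the 23413 genes of a count table of sorted mouse liver macrophages, and all 10 were in the table and among the 11393 genes with enough counts to be tested. The macrophages were sorted from collagenase-digested livers of male B6 mice as F4/80+CD11b+Gr1low cells and are labelled Kupffer cells (KCs), the resident macrophages of the liver. There were 2 libraries from mice on normal chow (NC), 3 from mice on a high-fat diet (HFD) that received vehicle (Veh), and 4 from HFD-fed mice that received diphenyleneiodonium (DPI), a compound the study used as an agonist of the receptor GPR3. By the study's methods, mice started their diet at 5 weeks of age and stayed on it for 8 weeks, and HFD-fed mice were injected with vehicle or 2 mg/kg DPI every 5 days from week 3. The labels instead describe purified cells exposed to 500 nM DPI for 24 h, and the diet and treatment given for each library in the labels were used to form the groups. All groups were of the same strain, and the labels give no genotype. The study's methods describe no injections for NC mice, so the comparison of Veh with NC holds the diet and the vehicle injections together. These cannot be told apart, and HFD against NC below means Veh against NC. The comparison of DPI with Veh addresses the compound under the diet.

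DUSPs remove phosphates from MAP kinases. Dusp1 and Dusp10 act mainly on p38 and JNK, Dusp6 is a cytoplasmic phosphatase specific to ERK, Dusp5 acts on ERK in the nucleus, and Dusp2 and Dusp4 are nuclear enzymes. Most of them are switched on by the pathways they restrain. SOCS proteins do the same for JAK-STAT signalling: SOCS1 restrains interferon signalling, SOCS3 restrains signalling through the IL-6 receptor subunit gp130, and CIS, the product of Cish, restrains signalling through STAT5. BCL6 represses inflammatory genes in macrophages and binds many of the DNA sites that STAT proteins bind.

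The total count per library ranged from 3534325 to 15585775, of which 27.0% to 44.5% fell on the ribosomal RNA precursor Rn45s. Levels are given as CPM, counts scaled to a fixed total of the tested genes with edgeR's TMM factors. A level of 3 counts, used as the floor of detection, was 0.184 to 1.02 CPM depending on the library, which covers counting error only. The NC libraries had a rank correlation of 0.740 with each other, lower than the 0.867 to 0.880 between Veh libraries and the 0.838 to 0.887 between DPI libraries. Emr1, the gene of F4/80, had 219 to 2315 counts in all libraries, but the resident KC genes Clec4f, Timd4 and Vsig4 were at 0 in 3, 5 and 5 of the 9 libraries. Of the other KC markers, Cd5l was at 0 in 2 libraries and had up to 601 counts, Spic had 3 to 54 counts and Id3 729 to 5064 counts, and the monocyte genes Ly6c2 and Ccr2 had 2422 to 24337 and 592 to 11625 counts. KC markers thus differed in whether they were detected in every library, and the cells are called sorted liver macrophages below. Because these are bulk libraries, fewer cells of a type and less RNA per cell cannot be told apart.

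Per kilobase of exon, which allows levels to be compared between genes, Dusp1 was the most abundant of the 10 genes, with a mean over all 9 libraries of 571 CPM per kb and rank 106 among the 10703 tested genes with an annotated length. Socs3 followed at 113 CPM per kb and Dusp2 at 58.2 CPM per kb, and each stood above the next gene in the order in 9, 9 and 8 of 9 libraries. Dusp6 had 25.9 CPM per kb, Bcl6 13.3 CPM per kb and Socs1 6.51 CPM per kb. The lower end of the order was less settled: Socs1 was above Dusp5 (4.50 CPM per kb) in 6 of 9 libraries, Dusp5 above Dusp10 (3.16 CPM per kb) in 6 of 9, and Cish (1.80 CPM per kb) above Dusp4 (0.782 CPM per kb) in 6 of 9. Replacing the exon union by the longest transcript left each gene at its rank.

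**Figure D1:**
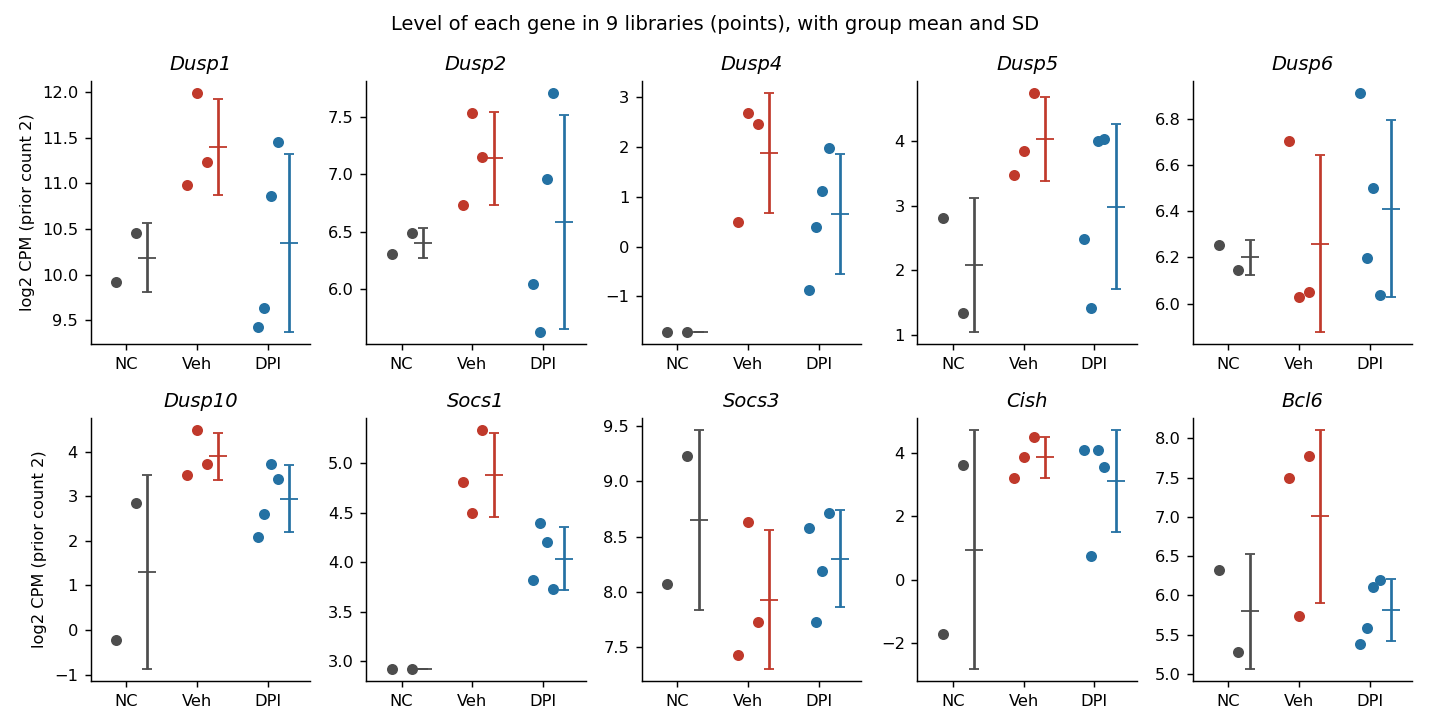
Level of each gene in the 9 libraries (log2 CPM with a prior count of 2; each panel has its own y axis), with 1 point per library and the group mean and SD beside the points. Socs1 separates NC, DPI and Veh without overlap, with group means of 7.28, 16.4 and 30.1 CPM, while Socs3 and Dusp6 overlap between all groups.

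Under the HFD, 4 of the 10 brakes were higher than under NC at the study's threshold, an unadjusted p under 0.05 with at least a 2-fold change, and none was lower. These were Socs1, Dusp4, Bcl6 and Dusp1. Of all tested genes, 7.03% were higher and 4.63% were lower at that threshold. The log2 fold change was above 0 for 9 of the 10 genes against 51.5% of all tested genes, with a median of 1.35 over the 10 and 0.03 over all tested genes. None of the 10 passed the Benjamini-Hochberg adjustment in edgeR's quasi-likelihood test, which 0.0614% of all genes did, and 4 had an unadjusted p under 0.05. At the study's threshold DESeq2's Wald test and edgeR's likelihood ratio test each called 6, adding Dusp5 and Dusp10. Dusp4 could pass the filter on low counts only through the HFD groups. Without it 3 of 9 genes were higher, 8 had a log2 fold change above 0, and the median was 1.35. Cish and Dusp10 also needed an HFD library to pass the filter, as their first NC libraries had 0 and 3 counts. Every Veh library lay above every NC library for 6 of the 10 genes and below for none, against 15% and 12.5% of all genes. Without Dusp4 it did so for 5 of 9. When libraries were scaled by their size alone, the median over all tested genes was -0.26 in place of 0.03, and only Socs1 and Dusp4 passed the threshold.

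Socs1 (chromosome 16 from 10782240 to 10785536, minus strand, GRCm38) gave the clearest difference. It had 7.29 and 7.28 CPM in the NC libraries, 27.7, 22.3 and 40.1 CPM in the Veh libraries and 13.8, 20.7, 18.2 and 13.0 CPM in the DPI libraries. Both NC libraries were thus lowest, the DPI libraries intermediate and the Veh libraries highest, with no overlap between the 3 groups. Against NC, Socs1 was higher with Veh by a log2 fold change of 2.04 (SE 0.53, Benjamini-Hochberg adjusted p = 0.166 by edgeR's quasi-likelihood test), a 4.12-fold difference. It passed the threshold under all 19 alternative settings. The near identity of the NC values rests on 40 and 39 counts, and counting error alone allows a wider spread.

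Dusp4, on chromosome 8 from 34807297 to 34819894 (plus strand), had no counts in either NC library. It had 5, 34 and 21 counts in the Veh libraries, or 1.11, 6.17 and 5.20 CPM. The DPI libraries had 4, 3, 10 and 36 counts, or 0.245, 1.02, 1.86 and 3.67 CPM. All 7 HFD libraries were at or above 3 counts. Against the floor of 3 counts in each NC library, Dusp4 was at least 7.52-fold higher with Veh (adjusted p = 0.254, edgeR quasi-likelihood test).

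Dusp1 (chromosome 17 from 26505590 to 26562128, minus strand) had 969 and 1400.3 CPM with NC and 2018, 4079 and 2404 CPM with Veh, so that every Veh library was above every NC library. The DPI libraries fell into a low pair, 687 and 790.4 CPM, and a high pair, 1868 and 2807 CPM. The log2 fold change of Veh against NC was 1.26 (SE 0.54, adjusted p = 0.353 by edgeR). Without the first NC library it was 1.03 with an unadjusted p = 0.144, and without the second Veh library, the highest, 0.90 with an unadjusted p = 0.131, both from edgeR and neither past the threshold. At its distal end the annotated Dusp1 locus overlaps Ergic1 on the opposite strand, which had 1996 counts over all libraries, far fewer than Dusp1.

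Bcl6 (chromosome 16 from 23965052 to 23988852, minus strand) differed between groups but not in every library. It had 79.4 and 38.5 CPM with NC, 180.5, 53.1 and 219 CPM with Veh, and 41.4, 47.6, 68.3 and 72.7 CPM with DPI. The second Veh library lay among the NC and DPI libraries, and the other 2 Veh libraries were above all other libraries. The log2 fold change of Veh against NC was 1.36 (SE 0.54, adjusted p = 0.333 by edgeR). It lost the threshold when the second NC library (0.95, unadjusted p = 0.157 by edgeR), the first Veh library (1.25, unadjusted p = 0.0602) or the third Veh library (1.03, unadjusted p = 0.0943) was left out. The call was also lost with a fit of the 2 groups only (1.35, unadjusted p = 0.0552 by edgeR) and with library size scaling (1.01, unadjusted p = 0.0828 by edgeR).

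The remaining DUSP genes split into those whose Veh libraries all lay above NC and Dusp6, whose groups overlapped. Dusp5, on chromosome 19 from 53529109 to 53542431, had 6.74 and 2.24 CPM with NC, 10.9, 14.1 and 26.5 CPM with Veh, and 5.27, 2.38, 15.8 and 16.1 CPM with DPI. Its log2 fold change of 1.93 (SE 0.90) just missed the threshold with an unadjusted p = 0.0520 in edgeR's test, and 9 of 18 alternative settings called it higher. The value was 2.93 without the first NC library and 1.37 without the second. Dusp10, on chromosome 1 from 184013302 to 184075636, had 0.546 and 6.91 CPM with NC, 10.9, 22.3 and 12.9 CPM with Veh, and 3.92, 5.77, 13.0 and 10.2 CPM with DPI. Its first NC library held only 3 counts, and the log2 fold change of 2.04 (SE 0.96, unadjusted p = 0.0534 by edgeR) became 4.80 without the second NC library. Dusp2, on chromosome 2 from 127336159 to 127338376, had 78.9 and 89.6 CPM with NC, 106, 185 and 141 CPM with Veh, and 65.5, 48.9, 124 and 209 CPM with DPI. The Veh libraries were all above NC, yet the log2 fold change was 0.78 (SE 0.52, unadjusted p = 0.159 by edgeR) and was called under none of the 19 settings.

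For Dusp6 (chromosome 10 from 99263231 to 99267489), the NC libraries had 75.9 and 70.6 CPM, the Veh libraries 104, 64.9 and 65.9 CPM and the DPI libraries 120.1, 73.0, 90.2 and 65.4 CPM. This ERK phosphatase had the narrowest range of the 10 genes, 1.85-fold between its lowest and highest library. The log2 fold change of Veh against NC was 0.09 (SE 0.36) with a 95% confidence interval of -0.68 to 0.87, and its sign turned with scaling by library size alone (-0.19).

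Of the other SOCS genes, neither Socs3 nor Cish passed the threshold. Socs3 (chromosome 11 from 117966079 to 117970047) had 269 and 600.4 CPM with NC, 172, 397 and 211 CPM with Veh, and 381, 212, 290.2 and 419 CPM with DPI. It was the single brake with a negative log2 fold change under HFD, -0.74 (SE 0.43, unadjusted p = 0.106 by edgeR), and its groups overlapped. Left without the first NC library the value was -1.195 (unadjusted p = 0.0221), and without the second Veh library -1.18 (unadjusted p = 0.0169), both past the threshold in edgeR's test. Cish (chromosome 9 from 107296026 to 107302784) had 0 and 64 counts in the NC libraries, or 0 and 11.95 CPM, and 8.88, 14.3 and 22.5 CPM with Veh. The DPI libraries had 16.7, 1.36, 16.9 and 11.5 CPM. With one NC library at 0 and the other within the range of the Veh values, the log2 fold change of 1.35 had an SE of 1.26. Without the second NC library, Cish was left with an NC library at 0 and passed the threshold (unadjusted p = 0.000616 by edgeR).

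**Figure D2:**
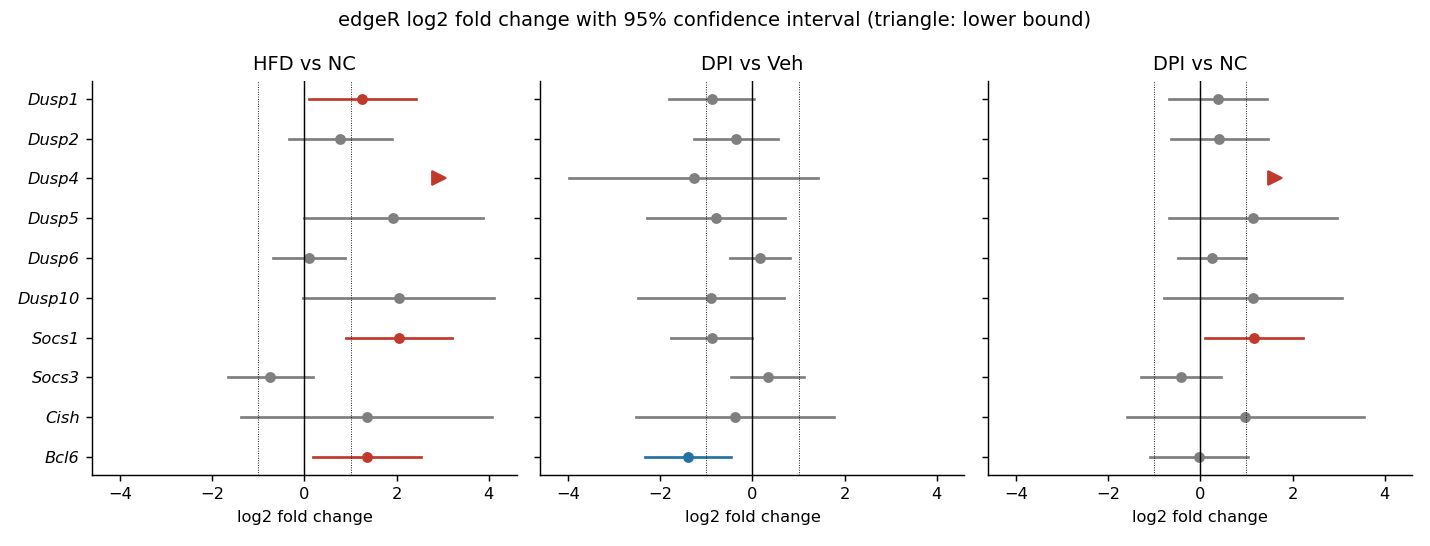
Log2 fold change (x axis) of each of the 10 genes in the 3 comparisons, from edgeR's quasi-likelihood fit, with 95% confidence intervals as lines, dotted lines at a 2-fold change and a triangle for the lower bound of Dusp4 where NC had no counts. Red marks genes past the study's threshold as higher (Socs1, Dusp4, Bcl6 and Dusp1 for HFD vs NC; Socs1 and Dusp4 for DPI vs NC) and blue marks Bcl6, lower for DPI vs Veh.

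With DPI against Veh, 1 of the 10 brakes, Bcl6, was lower at the study's threshold and none was higher. At this threshold 1.5% of all tested genes were higher and 1.34% were lower. The Veh libraries serve both this comparison and the one with NC, so the 2 sets of values are not independent. The log2 fold change was above 0 for 2 of the 10 genes against 53.1% of all tested genes, and below 0 for the other 8, with a median of -0.83 over the 10 and 0.04 over all tested genes. None of the 10 genes passed the adjustment, and with edgeR's quasi-likelihood test 0% of all tested genes did, although 470 genes had an unadjusted p under 0.05. DESeq2's Wald test gave 2 genes past the adjustment and edgeR's likelihood ratio test 1, and at the study's threshold both called only Bcl6 of the 10 brakes.

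Bcl6 was lower by a log2 fold change of -1.39 (SE 0.43, unadjusted p = 0.00640, adjusted p = 0.999 by edgeR), which is a 2.62-fold difference, and it ranked 33 by p among all tested genes. The group means were 151 ± 86.9 CPM (SD, n = 3) with Veh and 57.5 ± 15.3 CPM (SD, n = 4) with DPI, while NC had 58.9 ± 28.9 CPM (SD, n = 2). All DPI libraries lay below the first Veh library and the third, but 2 of the 4 lay above the second. The call held under 18 of 19 alternative settings, and without the third Veh library the log2 fold change was -1.03 with an unadjusted p = 0.0505 in edgeR's test.

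Socs1 was the one brake with every DPI library below every Veh library, which was the case for 2.48% of all genes, while 3.38% had every DPI library above. Its mean was 30.1 ± 9.14 CPM (SD, n = 3) with Veh and 16.4 ± 3.67 CPM (SD, n = 4) with DPI. The log2 fold change of -0.88 (SE 0.41, unadjusted p = 0.0502 by edgeR) missed the threshold. It passed without the second Veh library (-1.05, unadjusted p = 0.0408 by edgeR) or without the second DPI library (-1.01, unadjusted p = 0.0461 by edgeR). Without the third Veh library the value was -0.62, and Socs1 passed in 2 of 19 alternative settings.

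Dusp1 gave a similar size but a wider spread, with a log2 fold change of -0.88 (SE 0.43, unadjusted p = 0.0591 by edgeR). The low pair of DPI libraries was below all Veh and NC libraries and the fourth DPI library was above 2 of the 3 Veh libraries. Leaving out the fourth DPI library gave -1.35 with an unadjusted p = 0.00552, and leaving out the first Veh library gave -1.09 with an unadjusted p = 0.0455, both past the threshold in edgeR's test. Without the second Veh library the value was -0.52, and Dusp1 passed in 3 of 19 alternative settings. Dusp4, Dusp10 and Dusp5 had log2 fold changes of -1.28 (SE 1.25), -0.90 (SE 0.73) and -0.78 (SE 0.69). Those of Dusp2 and Cish were -0.36 (SE 0.42) and -0.37 (SE 0.99). Socs3 and Dusp6 were the 2 genes with positive values, 0.33 (95% confidence interval -0.46 to 1.11) and 0.16 (-0.49 to 0.81).

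Set against NC, the DPI group was higher for Socs1 and Dusp4 at the study's threshold and lower for no brake. Over all tested genes 6.24% were higher and 3.05% lower, and 0.00878% passed the adjustment. Socs1 had a log2 fold change of 1.16 (SE 0.50, adjusted p = 0.445 by edgeR), and Dusp4 was at least 3.07-fold higher than the floor of 3 counts per NC library (adjusted p = 0.379 by edgeR). For Socs1 all DPI libraries were above all NC libraries, which held for 11.7% of all genes, while 8.5% had every DPI library below. The first DPI library, with 0.245 CPM of Dusp4, lay under the floors of 0.546 and 0.560 CPM of the NC libraries and was not shown to be above them. Without the fourth DPI library the bound for Dusp4 was 1.88-fold. Socs1 passed in 11 of 19 alternative settings and Dusp4 in 14 of 17, whereas for Veh against NC these 2 genes passed in 19 of 19 and 18 of 18. Each lost the threshold when either NC library was left out, with unadjusted p of 0.0818 and 0.0775 for Socs1 and 0.0531 and 0.0519 for Dusp4 in edgeR's test. Dusp1 and Dusp2 had log2 fold changes of 0.38 (SE 0.50) and 0.41 (SE 0.49), and Bcl6 -0.04 (SE 0.49), with 95% confidence intervals that spanned 0. Over the 10 genes the median was 0.69, against 0.04 for all tested genes. Without Dusp4, which had no counts in NC, it was 0.41, and 1 of 9 genes was higher.

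Dusp1 is itself an immediate early gene, and such genes can be switched on while tissue is digested and sorted. The levels of 32 other immediate early and heat shock genes (Fos, Jun, Egr1, Atf3, Hspa1a and others) were therefore set beside the brakes. Their mean log2 CPM was 8.09 and 7.90 in the NC libraries, 8.10, 8.48 and 8.21 in the Veh libraries, and 7.70, 7.57, 8.02 and 8.12 in the DPI libraries. The 2 DPI libraries lowest on this measure are the low pair of Dusp1. The group means differed by 0.27 between Veh and NC (exact permutation p = 0.2, smallest possible 0.1, two-sided), by -0.41 between DPI and Veh (p = 0.114, smallest possible 0.0286, exact permutation) and by -0.15 between DPI and NC (p = 0.6, smallest possible 0.0667, exact permutation).

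Across the 9 libraries, Dusp1 and Dusp2 passed the adjustment for a correlation with the early response list, and the SOCS genes and Bcl6 did not. The correlation with the list was r = 0.879 for Dusp1 (exact permutation p = 0.00159, adjusted over 10 genes 0.0159; Spearman's rho 0.917, adjusted p = 0.0131). It was r = 0.849 for Dusp2 (exact permutation p = 0.00407, adjusted 0.0204; rho 0.867, adjusted p = 0.0225). Without the first and second DPI libraries, the farthest from the median, r was 0.744 and 0.615, and after centring each group on its mean it was 0.860 and 0.909. Neither gene passed the adjustment when the second Veh library, the first DPI library or the second DPI library was left out (adjusted exact permutation p of 0.0669 to 0.126, with r from 0.758 to 0.859). Dusp4 and Dusp10 had r = 0.574 and 0.391 (adjusted exact permutation p = 0.266 and 0.424), with rho 0.753 and 0.650 (adjusted p = 0.0598 and 0.122). Within the 7 HFD libraries r was 0.833 and 0.924, and without the first NC library, which had 3 counts of Dusp10, Dusp10 passed the adjustment with r = 0.924 (adjusted exact permutation p = 0.0102). Dusp5 had r = 0.741 (exact permutation p = 0.0221, adjusted 0.0736) and rho 0.767 (adjusted p = 0.0598). For Socs1, Socs3, Cish and Bcl6 r was 0.257, 0.044, 0.230 and 0.443, and for Dusp6 it was -0.435, with adjusted exact permutation p of 0.402 to 0.911. Whether the early response level accounts for a part of the differences in Dusp1 was not tested.

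**Figure D3:**
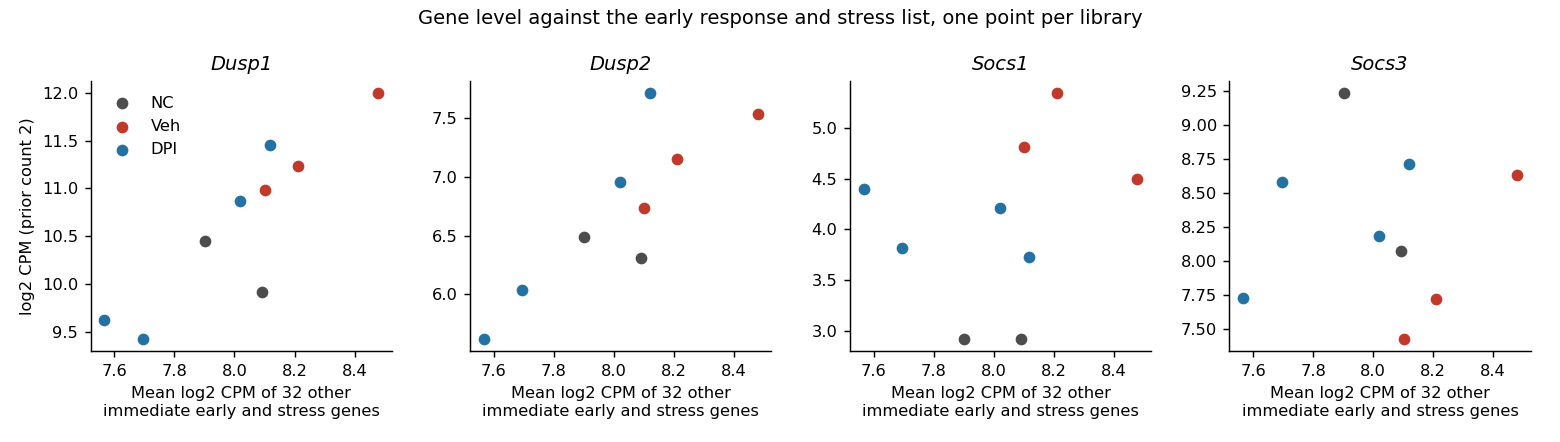
Level of Dusp1, Dusp2, Socs1 and Socs3 (y axis, log2 CPM) against the mean log2 CPM of 32 other immediate early and stress genes (x axis), 1 point per library, coloured by group. Dusp1 (r = 0.879) and Dusp2 (r = 0.849) rise along the list, while Socs1 (r = 0.257) and Socs3 (r = 0.044) do not line up with it.

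Among the 45 pairs that the 10 genes form, Dusp1 and Dusp2 were the most closely tied, with r = 0.940 (exact permutation p = 0.000284, adjusted over the 45 pairs 0.0128) and Spearman's rho 0.95 (adjusted p = 0.0159). This pair kept r = 0.915 without the 2 libraries farthest from the median and 0.95 after centring on group means. No other pair passed the adjustment. Pearson's r was positive for 34 of the 45 pairs, with a median of 0.413, and all 11 negative ones involved Dusp6 or Socs3. The most negative was Socs3 with Bcl6, r = -0.714 (exact permutation p = 0.0299, adjusted 0.129; rho -0.667, adjusted p = 0.189), which was -0.492 without the 2 farthest libraries.

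**Figure D4:**
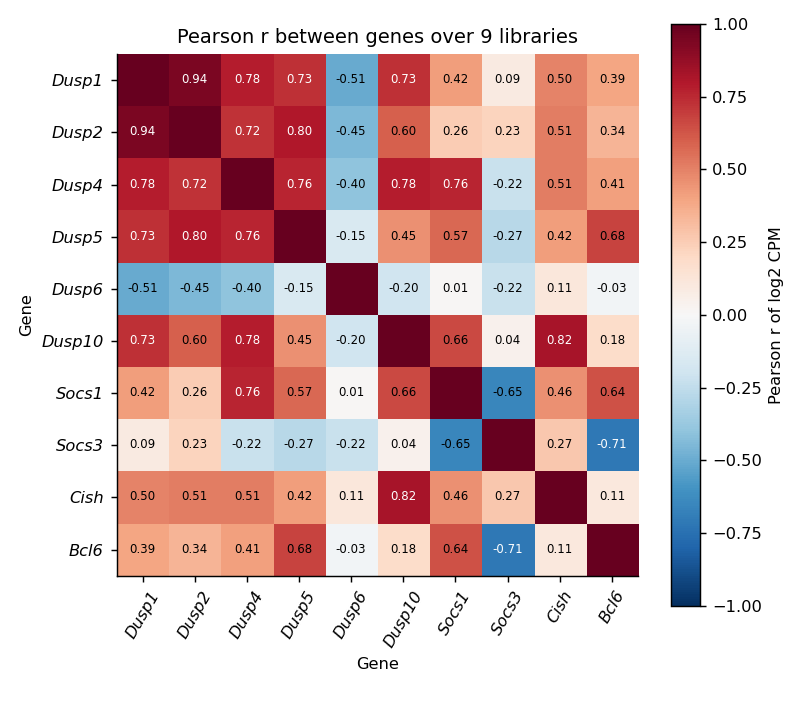
Pearson's r between the log2 CPM of each pair of the 10 genes over the 9 libraries (colour and number in each cell). Dusp1 and Dusp2 have the highest value (0.94), and the negative values lie in the rows of Dusp6 and Socs3.

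The genes whose log2 CPM was most like that of Dusp1 across the 9 libraries were Atf3 (r = 0.967), an immediate early transcription factor, Cxcl3 (r = 0.959), a chemokine, and Ccrl2 (r = 0.958), an atypical chemokine receptor. Those most like Socs1 were Rttn (r = 0.973), Serpina3g (r = 0.948) and Zc3hav1 (r = 0.939), of which Zc3hav1 encodes an antiviral zinc finger protein. Those most like Bcl6 were Arhgef10l (r = 0.976), Tctn3 (r = 0.967) and Tlr13 (r = 0.952), a receptor for bacterial ribosomal RNA. These were picked as the highest values among all tested genes over 9 points and carry no test. Rttn had no counts in either NC library and at most 35 in any other. Cxcl3 had at most 73 counts, and none in the first NC library or the first and second DPI libraries.

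The signalling parts that the brakes act on were compared in the same fits. Of 11 JAK and STAT genes, 0 passed the study's threshold in any of the 3 comparisons, with medians of 0.08, -0.18 and -0.40 for HFD vs NC, DPI vs Veh and DPI vs NC. The smallest unadjusted p among them was that of Tyk2, a kinase of interferon receptors, for DPI vs NC (log2 fold change -0.93, SE 0.42, unadjusted p = 0.0472 by edgeR). Of the 5 other SOCS genes (Socs2 and Socs4 to Socs7) none passed either (smallest unadjusted p = 0.186 by edgeR), and their medians were 0.42, -0.73 and -0.31. The same was true of 12 further cytokine brakes such as phosphatases and PIAS genes, with medians of 0.29, -0.19 and 0.22 and a smallest unadjusted p = 0.0861 by edgeR. Of 10 other DUSP genes tested, Dusp7, an ERK phosphatase, was lower in DPI than in NC (log2 fold change -1.50, SE 0.64, unadjusted p = 0.0348 by edgeR) and no other passed in any comparison.

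Among 11 tested brakes of the Ras-ERK pathway, Nf1, which inactivates Ras, and Spred1, which recruits it, were higher under HFD than under NC and none was lower. Nf1 had 6 and 9 counts with NC and 78, 37 and 60 counts with Veh, a log2 fold change of 3.21 (SE 1.07, unadjusted p = 0.0102 by edgeR). Spred1 had 1 and 5 counts with NC and 21, 25 and 39 counts with Veh (3.45, SE 1.39, unadjusted p = 0.0273 by edgeR). With so few counts in NC, both genes could pass the filter on low counts only through the HFD groups. With DPI against Veh, the adaptor Dok1 (-1.10, SE 0.39) and Errfi1, an inhibitor of EGF receptors (-1.18, SE 0.51), were lower and none was higher. The medians of this list, with Nf1 and Spred1 included, were 1.02 for HFD vs NC and -0.95 for DPI vs Veh.

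Of 26 tested MAP kinase cascade genes, 4 were lower and 1 was higher under HFD than under NC, and 0 passed between DPI and Veh. The p38 gene Mapk14 had a log2 fold change of -1.42 (SE 0.45), the ERK5 gene Mapk7 -1.43 (SE 0.49) and Map3k5, the kinase ASK1, -1.22 (SE 0.47). Mapk11, another p38 gene and the 1 higher in this comparison and in that of DPI with NC, had 0 counts in both NC libraries and 9, 13 and 7 with Veh, and could pass the filter on low counts only through the HFD groups. Against NC, DPI had 4 lower and 1 higher, among them Mapk14 (-1.31, SE 0.42) and Braf (-1.28, SE 0.50).

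Of 22 tested cytokine receptor genes, 3 were higher and 1 lower under HFD. Il2rb, a receptor subunit for IL-2 and IL-15 found on T and NK cells, had 5 and 79 counts with NC and 465, 306 and 326 with Veh, a log2 fold change of 3.35 (SE 0.81). Il2rg, the shared gamma chain, was higher by 1.02 (SE 0.34) and Il7r by 1.24 (SE 0.55), and Lifr, a partner of gp130, had a log2 fold change of -1.03 (SE 0.42). With DPI against Veh, Csf2rb2, a subunit of the IL-3 receptor, was lower, with a log2 fold change of -1.26 (SE 0.36), and no receptor was higher. Among 9 cofactors of BCL6, none passed for HFD vs NC or DPI vs Veh, and the corepressor gene Ctbp1 was lower in DPI than in NC (-1.33, SE 0.61).

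Of the 32 early response genes themselves, 6 were higher and none lower under HFD, among them Zfp36 (1.204, SE 0.39), which destabilises cytokine mRNAs, Nfkbia (1.05, SE 0.37), the NF-kappaB inhibitor, Klf6 (1.26, SE 0.47) and Atf3 (1.03, SE 0.44). With DPI against Veh, 3 were lower and none higher, namely Egr1 (-1.30, SE 0.33), Fosb (-1.06, SE 0.34) and Nr4a1 (-1.08, SE 0.40). Against NC, 2 were lower with DPI, Jund and Rhob.

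Markers of other cell types also differed between the groups. The summed level of 14 T and NK cell markers was 105 to 381 CPM in NC, 383 to 530 CPM in Veh and 327 to 639 CPM in DPI, and 4 of the 13 tested were higher in Veh than in NC and none lower. These cells also use Socs1, Cish, Dusp2, Dusp4 and Bcl6. Summed B cell markers were 15.8 to 79.4 CPM, 109 to 201 CPM and 19.7 to 460.3 CPM in the same order, with 1 of 8 higher in Veh than in NC. Dendritic cell markers summed to 55.7 to 108 CPM, 195 to 310.3 CPM and 123 to 411 CPM, with 1 of 8 higher. Neutrophil markers summed to 1227 to 3126 CPM, 2528 to 3888 CPM and 883 to 5558 CPM, with 1 of 10 higher and 1 lower in Veh than in NC and 3 higher in DPI than in Veh. Mpo, the 1 higher in Veh than in NC, had 0 and 6 counts with NC. It could pass the filter on low counts only through the HFD groups.

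Liver endothelial markers went the other way, with 235 to 355 CPM in NC, 15.4 to 27.3 CPM in Veh and 10.8 to 257 CPM in DPI, and 7 of 9 were lower and 1 was higher in Veh than in NC, while 5 were higher in DPI than in Veh. Pecam1, the 1 higher in Veh, had 5 and 6 counts with NC. It too could pass the filter on low counts only through the HFD groups. Hepatocyte markers summed to 1180.2 to 1466 CPM, 751 to 1153 CPM and 619.5 to 1484 CPM, with 3 of 9 lower in Veh than in NC. KC markers summed to 377 to 410.3 CPM in NC, 552 to 1058 CPM in Veh and 428 to 632 CPM in DPI, with 1 of 9 higher and 2 lower in Veh than in NC. The higher sum in Veh came mostly from Id3, with a mean of 178 CPM in NC and 602 CPM in Veh, while of the other 8 tested KC markers 3 (Slc40a1, Nr1h3 and Spic) had log2 fold changes above 0, from 0.68 to 0.72, and 5 (Emr1, Clec1b, Clec4f, Cdh5 and Cd5l) below 0. Monocyte and macrophage markers summed to 4198 to 5307 CPM, 4454 to 5713 CPM and 4245 to 7899 CPM, with 1 of 9 higher and 1 lower. Eosinophil markers summed to 68.2 to 96.3 CPM, 52.8 to 66.1 CPM and 30.1 to 175.6 CPM. Epx, Ear6, Ear1 and Prg2 had at most 10 counts in any NC or Veh library and passed the filter on low counts only through the DPI libraries, in which Prg2 had 1296, 265, 2 and 468 counts, so no count of calls is given for this list. The part of these cell types in the differences of Socs1, Dusp4, Dusp1 and Bcl6 was not tested.

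The promoters of 9 of the 10 genes, Dusp4 being the other one, were in the RefSeq table (GRCm38.p6), with 10 annotated starts in all because Bcl6 has 2. Windows from 250 bases before to 50 bases after each start were searched for some of the motifs of the pathways that the genes restrain. The STAT motif TTCNNNGAA, which reads the same on both strands, was found in 4 of the 10 windows (Cish, Socs3 and both starts of Bcl6) and in 8.30% of 32851 promoters. The cyclic AMP response element (CRE) TGACGTCA was found in Dusp1 alone of these and in 1.79% of all promoters. The shorter CRE motif TGACG, searched on both strands and contained in the full CRE, was found in 5 windows and in 20.8% of all. A match to the NF-kappaB motif was found in Dusp5 alone and in 1.63% of all, and the AP-1 motif TGANTCA (7.81% of all), the EGR motif GCGTGGGCG (0.612%) and the STAT6 motif with a longer spacer (6.95%) were found in none of the 10 windows. Letters in a window describe the sequence and do not show that a factor binds there.

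The windows with a STAT motif or a full CRE are shown from 250 bases before to 20 bases after the start, 5′ to 3′ on the strand of the gene, with those motifs in capitals, because the STAT motif was found in windows of Socs3, Cish and Bcl6 and in none of the 5 DUSP genes searched. The window of Dusp1 is chr17:26508453-26508722 (minus strand), that of Socs3 chr11:117969347-117969616 (minus strand), that of Cish chr9:107296409-107296678 (plus strand) and those of the Bcl6 starts chr16:23988833-23989102 and chr16:23981264-23981533 (minus strand).
Dusp1: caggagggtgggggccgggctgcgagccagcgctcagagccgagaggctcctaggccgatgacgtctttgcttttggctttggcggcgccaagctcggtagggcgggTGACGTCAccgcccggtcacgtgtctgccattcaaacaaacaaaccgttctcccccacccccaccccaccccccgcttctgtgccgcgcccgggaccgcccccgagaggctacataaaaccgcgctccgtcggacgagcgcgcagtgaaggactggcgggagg
Socs3: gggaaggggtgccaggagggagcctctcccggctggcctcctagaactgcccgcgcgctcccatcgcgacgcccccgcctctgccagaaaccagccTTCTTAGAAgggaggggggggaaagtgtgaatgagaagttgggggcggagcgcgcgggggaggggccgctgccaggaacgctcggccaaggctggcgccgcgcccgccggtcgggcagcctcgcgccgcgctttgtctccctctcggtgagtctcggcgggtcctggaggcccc
Cish: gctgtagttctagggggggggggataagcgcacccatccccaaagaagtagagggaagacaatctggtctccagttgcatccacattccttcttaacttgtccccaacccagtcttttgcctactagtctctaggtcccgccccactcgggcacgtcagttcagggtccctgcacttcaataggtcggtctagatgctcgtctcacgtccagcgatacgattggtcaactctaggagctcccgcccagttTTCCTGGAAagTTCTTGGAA
Bcl6, upstream start: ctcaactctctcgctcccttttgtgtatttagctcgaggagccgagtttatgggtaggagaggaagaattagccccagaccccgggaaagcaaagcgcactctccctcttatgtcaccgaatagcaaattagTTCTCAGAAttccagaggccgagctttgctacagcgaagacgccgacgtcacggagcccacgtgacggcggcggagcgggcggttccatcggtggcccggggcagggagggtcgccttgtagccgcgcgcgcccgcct
Bcl6, downstream start: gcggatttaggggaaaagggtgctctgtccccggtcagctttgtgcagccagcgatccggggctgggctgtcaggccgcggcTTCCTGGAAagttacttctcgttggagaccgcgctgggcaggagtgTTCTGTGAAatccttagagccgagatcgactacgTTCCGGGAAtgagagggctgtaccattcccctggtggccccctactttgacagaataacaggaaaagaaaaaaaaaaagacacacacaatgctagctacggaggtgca
The CRE of Dusp1 begins 143 bases before the start, and the STAT motif of Socs3 154 bases before it. Cish carries a pair of STAT motifs that begin at the start itself and 11 bases after it. The downstream start of Bcl6 has 3 STAT motifs, 168, 122 and 88 bases before the start, and the upstream one has 1 at 118 bases. Dusp1 and Dusp2, the pair with the highest correlation across libraries, did not share the full CRE, as Dusp2 held only the shorter motif. Socs1, which differed most clearly between the groups, had none of the motifs searched in its window. An interferon response motif was not among those searched.

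**Figure D5:**
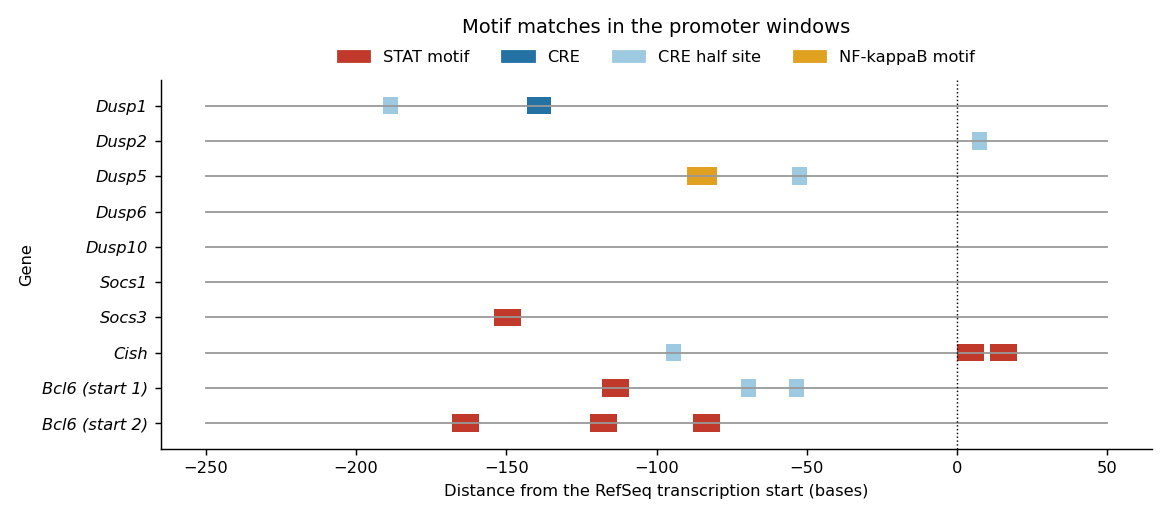
Matches to the searched motifs in the promoter windows of 9 genes (x axis, distance in bases from the RefSeq start, marked by the dotted line; 1 line per start). The windows of Cish, Socs3 and both Bcl6 starts hold STAT motifs, Dusp1 holds the CRE, and those of Dusp6, Dusp10 and Socs1 hold no match.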

How the data were processed

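Poly(A) RNA of sorted liver macrophages was made into libraries with the KAPA mRNA HyperPrep kit. The authors aligned the reads to mm10 and deposited raw counts per gene from bowtie2 and RSEM, without normalization, while their processing notes name TopHat2 and edgeR. Strand use in counting is not given in the sources used here. The 9 columns were mapped to diet and treatment by the labels, which name separate mice. The counts as deposited were tested with edgeR 4.0.16 (R 4.3.3) by the quasi-likelihood test over the 3 groups, with filterByExpr and TMM. The Benjamini-Hochberg adjustment ran over the 11393 genes tested. The call rule, an unadjusted p under 0.05 together with a change of at least 2-fold, is the study's. The script was tested on simulated data.

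Log2 CPM used a prior count of 2. Exact permutation tests were two-sided. The biological coefficient of variation was 0.65. Gene positions and exon lengths came from GENCODE M21 (GRCm38), matched by symbol for 93.9% of tested genes. Members, gene lists, the pair correlations and all tests were chosen with earlier results of these data known. All 10 members were named, from each other list at most the 4 genes per comparison with the smallest p past the call rule, and the 3 genes most like Dusp1, Socs1 and Bcl6 by Pearson's r. The lists, all written by hand, were the JAK and STAT, other SOCS, cytokine brake, other DUSP, Ras-ERK brake, MAP kinase, cytokine receptor, BCL6 cofactor, early response and cell type marker lists. The alternatives tried were DESeq2 1.42.0, scaling by RLE or by library size, no filter or at least 10 counts in every library, edgeR's likelihood ratio test, a fit of 2 groups, the replicate number as a block, no Rn45s, counts thinned to the smallest depth, the longest transcript as gene length, a prior count of 0.5, the early response list without heat shock genes, and each library left out. Values were summarised with pandas 2.3.3, numpy 2.4.6 and scipy 1.17.1 in Python 3.11.15. One gene of the BCL6 cofactor list is not reported here.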

Additional observations from a re-analysis of the deposited data

Results flagged for a closer look

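In the DPI group, the only group with 4 libraries, 30 levels (the 10 brakes, the summed level of each gene list and the mean of the early response list) were examined for a library far from the other 3 by Dixon's test. None of the 10 brakes was singled out, and 4 list sums were, where chance alone marks about 1 in 20 such groups. The 5 other SOCS genes summed to 52.3 CPM in the second DPI library, against 28.9 to 31.8 CPM in the others. The 12 further cytokine brakes summed to 1115 CPM in the first DPI library, against 918 to 922 CPM. The Ras-ERK brakes summed to 173 CPM in the third DPI library, against 196 to 197 CPM. The cytokine receptors summed to 3364 CPM in the fourth DPI library, against 2955 to 2989 CPM.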

How the results depend on the processing

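Of 557 recomputed fold changes of the 10 brakes, 497 kept their direction and side of the threshold, 21 lost the threshold, 24 gained it and 15 changed sign. The number of brakes past the threshold for HFD vs NC was 4, and was 2 with library size scaling and 3 to 5 with a library left out. For DPI vs Veh it was 1, and 0 to 2 with a library left out (0 without the third Veh library). For DPI vs NC it was 2. It was 1 with library size scaling, 1 without the filter on low counts, 1 with at least 10 counts in every library, 0 with a fit of the 2 groups only and 0 to 2 with a library left out (0 without the first NC library). With at least 10 counts required, Dusp4 and other low genes were not tested. The cause of the other changes was not tested.

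Same-numbered libraries of different groups correlated between -0.022 and 0.084 in their deviations from the group means, so the numbers were not taken to pair the samples. With the replicate number as a block, 4 brakes were called for HFD vs NC, where Bcl6 was lost (0.99, unadjusted p = 0.0547 by edgeR) and Dusp10 gained (2.37, unadjusted p = 0.0410 by edgeR). The block gave 2 for DPI vs Veh (Bcl6 and Dusp1) and 0 for DPI vs NC. The block turned the log2 fold changes of Dusp1 and Dusp2 for DPI vs NC to -0.36 and -0.33. Library size scaling turned Dusp6 for HFD vs NC to -0.19.

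With each library left out, values that changed sign ranged for HFD vs NC from -0.12 to 0.25 (Dusp6). For DPI vs Veh they ranged from -0.038 to 0.41 (Dusp6) and from -0.65 to 0.00019 (Cish). For DPI vs NC they ranged from -0.088 to 0.69 (Dusp1), -0.082 to 0.69 (Dusp2), -0.87 to 0.31 (Socs3), -0.0087 to 9.32 (Cish, whose first NC library had no counts) and -0.44 to 0.59 (Bcl6). The number of brakes correlated with the early response list was 2, and was 3 without its heat shock genes and 0 to 3 with a library left out. The correlations that changed sign ranged from -0.23 to 0.19 (Socs3) and -0.023 to 0.585 (Cish). The group differences of the early response list kept their sign, with ranges of 0.16 to 0.36 for HFD vs NC, -0.50 to -0.31 for DPI vs Veh and -0.24 to -0.05 for DPI vs NC.

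Over all genes, the counts past the threshold for HFD vs NC (801 higher, 528 lower) were 381 and 345 with at least 10 counts in every library. The lower count was 933 with library size scaling and 287 with the block, and without the second NC library the counts were 1793 and 841. Without the third Veh library the lower count was 349. For DPI vs Veh (171 and 153) they were 281 and 321 without the filter. The higher count was 65 with at least 10 counts, and the lower was 101 with library size scaling, 239 with 2 groups and 251 with the block. With a library left out the higher count ranged from 102 (without the first DPI library) to 277 (without the first NC library), and the lower from 65 (without the first Veh library) to 307 (without the second). The lower count was 84 without the third Veh library. For DPI vs NC (711 and 347) the higher count was 245 with at least 10 counts and the lower was 624 with library size scaling. Without the second NC library they were 1812 and 814. Genes past the adjustment for HFD vs NC (7) numbered 312 with DESeq2, 280 with edgeR's likelihood ratio test, 52 without the filter, 0 with 2 groups, 0 with the block, 1 with library size scaling, 568 without the second NC library and 1 to 3 without any other library. For DPI vs NC (1) they numbered 219, 186, 22, 0 and 0 under the first 5 of these and 572 without the second NC library. Counts at or near 0 in NC limit what can be shown for Dusp4, Cish and Dusp10.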
